A study of Rattus norvegicus with 18 samples.

Results

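The transcripts described here are those of 10 enzymes of glycolysis, chosen by gene symbol: Hk1, Hk2, Pfkl, Pfkp, Aldoa, Pgk1, Eno1, Pkm, Ldha and Ldhb. Of the 10, 8 had a row under their symbol in the gene table, and all 8 passed the filter on low values, among 13988 genes tested of 18420 gene rows. Aldoa and Pgk1 were not analysed here. The RNA was from the renal cortex of Zucker diabetic fatty (ZDF) rats and was sequenced as 18 libraries, 6 for each of 3 groups. The healthy control group held lean ZDF fa/+ rats labelled non-diabetic. The disease group held ZDF fa/fa rats labelled diabetic, and the RYGB group held ZDF fa/fa rats, also labelled diabetic, that had undergone the Roux-en-Y form of gastric bypass, in which a small stomach pouch is joined to the jejunum. The fa allele is a mutation of the leptin receptor, and the animals of the disease and RYGB groups carry 2 copies of it, so neither group is a wild type. The labels give no age, sex, sham operation or batch, and do not say that each library came from its own animal, so each p-value refers to the spread among libraries, which may be technical.

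Glycolysis splits glucose into pyruvate in the cytosol, and lactate dehydrogenase then interconverts pyruvate and lactate. Several steps are shared by isoenzymes encoded by separate genes, which differ in the tissues that express them and in how they are regulated. In the kidney, the proximal tubule is known for making glucose and for taking up lactate, while the distal nephron and the medulla rely more on glycolysis.

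The libraries held 8116638 to 42713246 reads in genes. Of the 16 proximal tubule markers examined, 15 had a row and none was at 0 in a group, and all 8 podocyte markers had a row and none was at 0, both being cortical cell types. The summed level of 4 medullary markers lay between 2450 and 4497 normalised reads. Healthy control replicate 4 stood apart from the other libraries of its group for several genes of glucose metabolism: it had the group's highest Hk1 and Pfkl and its lowest Hk2 and Eno1. It also had the fewest reads in genes of the 18 libraries, 8116638. Results that rest on this library are given with and without it. The levels below are normalised read counts, that is, reads divided by a size factor per library, and they were not divided by transcript length, so they are compared between groups and not between genes. A fold change is the difference in log2(normalised count + 1) with its standard error (SE), and genes with an adjusted p under 0.05 were called (limma, Benjamini-Hochberg over all genes tested). Leaving out healthy control replicate 4 raised the calls over all genes tested from 225 to 310 in disease against healthy control. In RYGB they rose from 552 to 756 against disease and from 621 to 1501 against healthy control.

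Between disease and healthy control none of the 8 enzymes was called, where 1.61% of all genes tested were. At an unadjusted p below 0.05, 2 were higher (Ldha and Ldhb) and 1 was lower (Hk2), beside 5.19% and 5.89% of all genes. edgeR on the reads called 0 of the 8 and DESeq2 called 1, Ldha. Between RYGB and disease 0 of 8 were called, where 3.95% of all genes were. Here 1 enzyme was higher (Pfkl) and 1 lower (Ldhb) at an unadjusted p below 0.05, beside 11.2% and 9.54% of all genes, and edgeR called 0 and DESeq2 1, Ldhb. Between RYGB and healthy control 2 of 8 were called, Pfkl and Ldha, both higher, where 4.44% of all genes were called in either direction and 2.46% as higher. At an unadjusted p below 0.05 these 2 were higher and Hk2 was lower, beside 14.4% and 11.8% of all genes, and edgeR and DESeq2 called all 3. Of all 13988 genes tested, edgeR called 224, 629 and 846 in the 3 comparisons and DESeq2 called 410, 1098 and 1602, more than limma in RYGB against either group. The median log2 fold change of the 8 was 0.09, -0.06 and -0.08 in the 3 comparisons, beside medians between -0.01 and 0.00 over all genes tested. The differences at an unadjusted p below 0.05 lay in 4 genes: Hk2, Pfkl, Ldha and Ldhb.

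**Figure D1:**
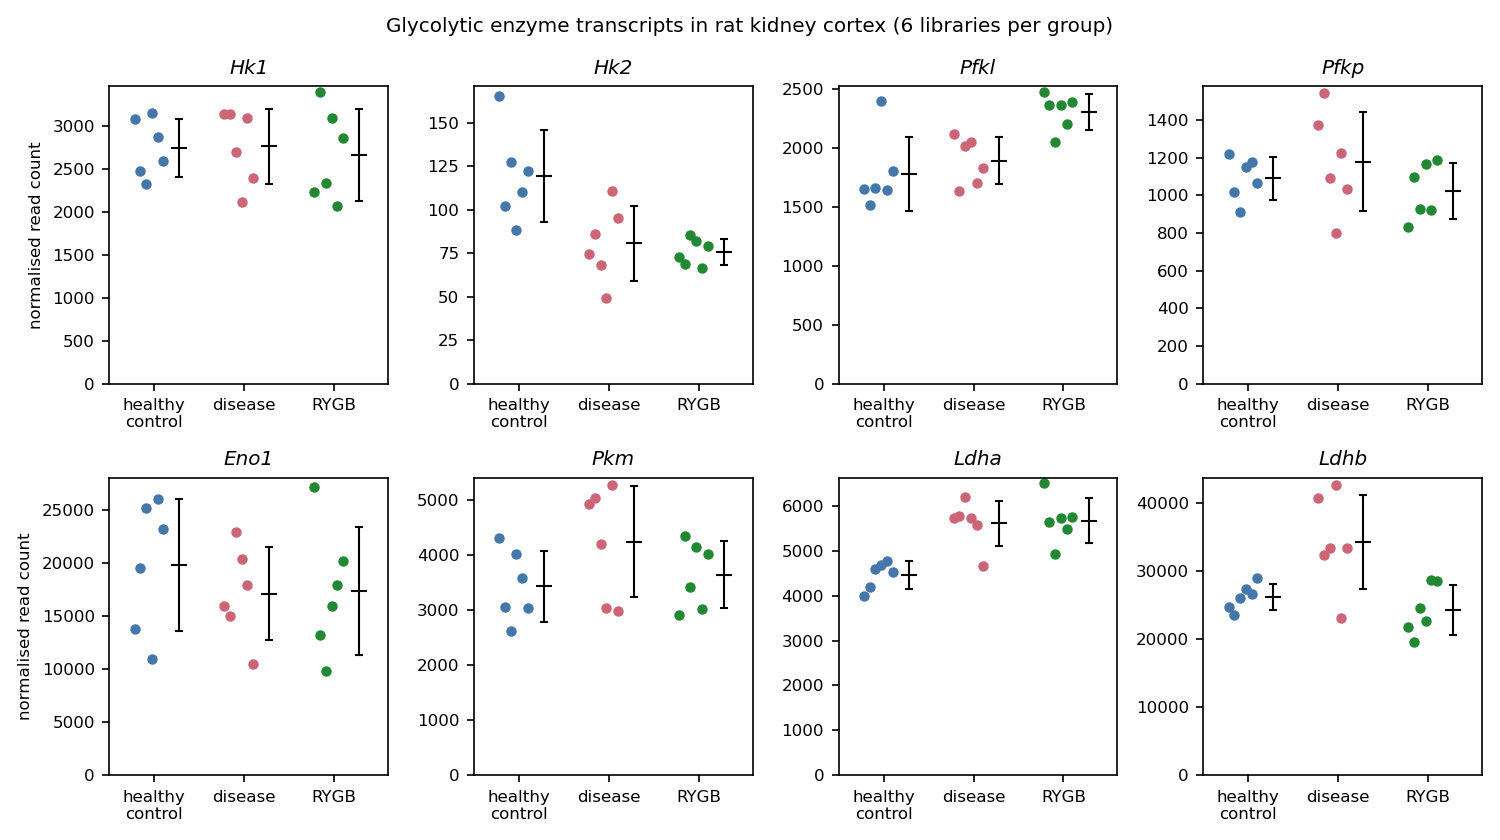
Normalised read counts (linear axes from 0) of the 8 glycolytic enzymes in each of the 18 libraries, by group; points are libraries and the bars give the mean ± SD of 6 libraries. The 6 RYGB libraries lie above every healthy control library for Ldha and below every one for Hk2, and 1 healthy control library at 2397 stands inside the RYGB range for Pfkl.

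**Figure D2:**
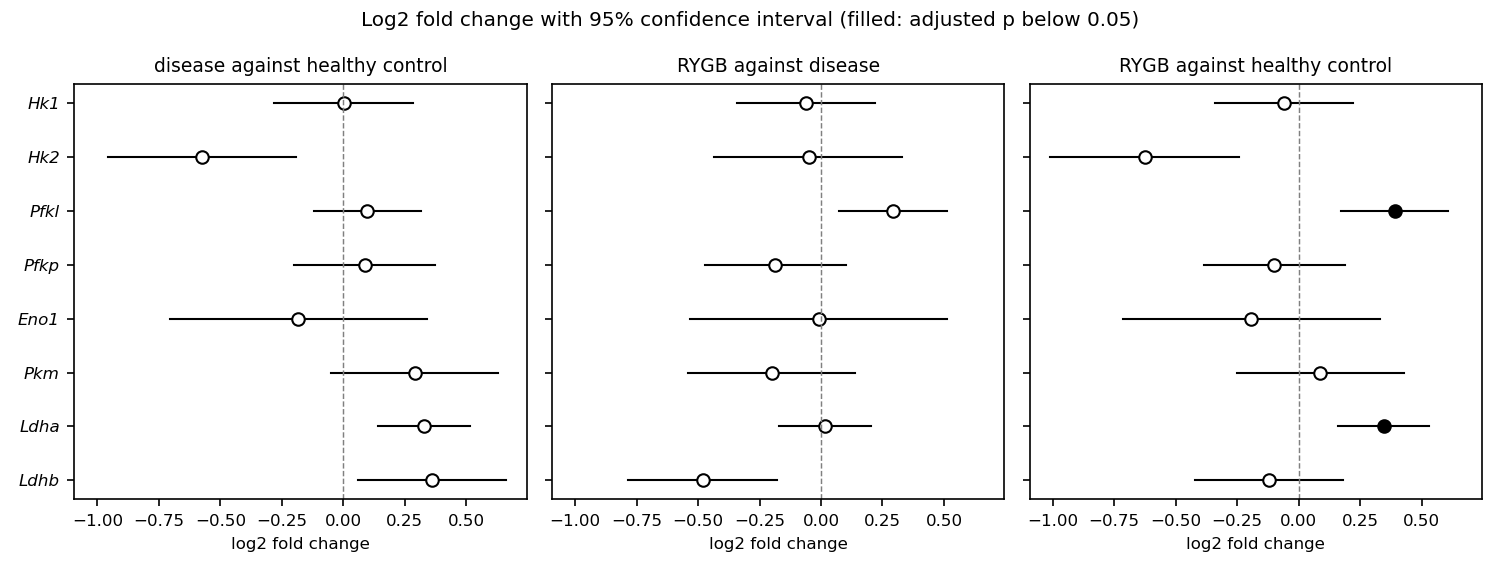
Log2 fold change of each enzyme with its 95% confidence interval from limma, in the 3 comparisons of 6 libraries against 6; filled points mark an adjusted p below 0.05. The filled points are Pfkl (0.39) and Ldha (0.35), both in RYGB against healthy control.

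The hexokinases phosphorylate glucose, the entry step of the pathway. Hk1, the widely expressed form held at the mitochondrial surface, had lowest, median and highest normalised counts of 2317, 2730 and 3147 in healthy control, 2112, 2892 and 3140 in disease, and 2064, 2593 and 3397 in RYGB. The 3 groups covered nearly the same range. The log2 difference between disease and healthy control was 0.00, with a 95% confidence interval from -0.28 to 0.28, and that between RYGB and healthy control was -0.06, from -0.34 to 0.22.

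Hk2, the insulin-responsive hexokinase best known from muscle and fat, had lowest, median and highest counts of 88.31, 116.1 and 165.4 in healthy control, 49.19, 80.49 and 111 in disease, and 66.26, 75.9 and 85.24 in RYGB. All 6 RYGB libraries lay below every healthy control library, and 4 of 6 disease libraries did, while the RYGB libraries fell inside the disease range. In RYGB against healthy control the groups did not overlap for 2 of the 8 enzymes, lower for Hk2 and higher for Ldha, beside 1.4% and 1.82% of all genes. For none of the 8 were groups separate in disease against healthy control or RYGB against disease, beside 1.24% and 2.6%. The log2 fold change of Hk2 in RYGB against healthy control was -0.63 ± 0.18 (SE), 0.648 times the control level, and its adjusted p of 0.0536 in limma missed the threshold. It was past the threshold without healthy control replicate 4 (-0.71, adjusted p = 0.0207), on leaving out disease replicate 4, 5 or 6 or else RYGB replicate 3 (0.036 to 0.043), with quantile normalisation (0.0475), with only the compared groups in the fit (0.0267), with edgeR (0.0422) and with DESeq2 (0.00911). In disease against healthy control the difference was -0.58 ± 0.18 (SE), with an adjusted p of 0.165 (limma). Between RYGB and disease it was -0.05, with a 95% confidence interval from -0.43 to 0.33.

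The promoter window of Hk2 is printed because its counts lay lower in both fa/fa groups, although neither difference was called. All 8 enzymes had a window in the RefSeq table, Hk1 and Eno1 with 2 each. It covers 250 bases before to 50 bases after the annotated start, from RefSeq, on GRCr8 chr4:116841226-116841525, minus strand, 5′ to 3′. In this and the other windows, capitals mark ACGTG and GCGTG, the core letters of hypoxia response elements, and CACGTG, the E-box letters, on either strand. Of 33469 such rat windows, 19.3% hold ACGTG, 29.7% GCGTG, 41.6% at least 1 of these, and 6.42% CACGTG, which contains ACGTG. The Hk2 window holds none of them, so it has no capitals:
Hk2: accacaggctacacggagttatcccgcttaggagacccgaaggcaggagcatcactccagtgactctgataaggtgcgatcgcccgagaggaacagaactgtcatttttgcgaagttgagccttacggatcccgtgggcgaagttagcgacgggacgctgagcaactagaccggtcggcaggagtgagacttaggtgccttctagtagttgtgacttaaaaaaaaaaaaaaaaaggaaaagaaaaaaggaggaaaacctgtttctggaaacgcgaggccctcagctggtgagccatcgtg

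Phosphofructokinase commits the sugar to glycolysis, and Pfkl and Pfkp encode its liver and platelet forms. Pfkl had lowest, median and highest counts of 1514, 1659 and 2397 in healthy control, 1635, 1923 and 2120 in disease, and 2056, 2366 and 2477 in RYGB. The lowest RYGB library lay above 5 of the 6 healthy control libraries, whose next highest value was 1804, and 5 of 6 RYGB libraries lay above every disease library. The group means ± SD (n = 6) were 1780 ± 316, 1892 ± 199 and 2310 ± 154. Pfkl was higher in RYGB than in healthy control by a log2 fold change of 0.39 ± 0.10 (SE), 1.31-fold, with an adjusted p of 0.04 (limma). Without healthy control replicate 4 the value was 0.48, with an adjusted p of 0.00221. The call was lost when any 1 of 10 other libraries was left out, healthy control replicates 1, 2, 3, 5 and 6 and RYGB replicates 1, 2, 4, 5 and 6 (limma adjusted p 0.0705 to 0.0997). In RYGB against disease the difference was 0.29 ± 0.10 (SE), with an adjusted p of 0.121, and 0.0487 in limma without healthy control replicate 4. Between disease and healthy control it was 0.10, with a 95% confidence interval from -0.12 to 0.32.

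The Pfkl window is printed because Pfkl and Ldha were the pair that rose in RYGB against healthy control. On GRCr8 chr20:10663715-10664014, plus strand, it holds GCGTG 2 times and neither ACGTG nor CACGTG:
Pfkl: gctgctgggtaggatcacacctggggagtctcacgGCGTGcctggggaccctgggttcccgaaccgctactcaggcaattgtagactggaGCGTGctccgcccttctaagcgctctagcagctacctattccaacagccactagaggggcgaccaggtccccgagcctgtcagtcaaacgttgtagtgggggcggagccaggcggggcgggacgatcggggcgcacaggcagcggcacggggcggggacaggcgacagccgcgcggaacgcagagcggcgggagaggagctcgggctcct

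Pfkp had lowest, median and highest counts of 914.5, 1107 and 1220 in healthy control, 799.7, 1160 and 1545 in disease, and 833.4, 1012 and 1187 in RYGB. The disease libraries were the most spread, with 3 above and 1 below all healthy control libraries. None of its differences was called, and that in RYGB against healthy control was -0.10, with a 95% confidence interval from -0.39 to 0.19. Within each library, Pfkp reads made up 32.4 to 42.4% of Pfkp and Pfkl reads together in healthy control, 28.1 to 48.6% in disease and 25.2 to 33.1% in RYGB. The medians were 38.7, 37.7 and 31.4%, and 1 healthy control library, at 32.4%, reached into the RYGB range. These shares count reads and are not corrected for transcript length, so only their differences are read. The log2 ratio of Pfkp to Pfkl was lower in RYGB than in healthy control by 0.49 on the means of -1.18 ± 0.21 and -0.70 ± 0.24 (SD, n = 6 each; exact permutation test, two-sided, p = 0.00649, adjusted p = 0.039 over 12 ratio tests). In RYGB against disease the difference was -0.48 (exact permutation test, adjusted p = 0.0693). The first of these was lost when any 1 of 9 libraries was left out, healthy control replicates 1, 2, 3, 5 and 6 and RYGB replicates 1, 2, 3 and 5 (exact permutation test, adjusted p 0.0519 to 0.0584). The difference then lay between -0.52 and -0.41. Fewer libraries allow fewer splits, so the change in adjusted p alone does not show a weaker difference.

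**Figure D3:**
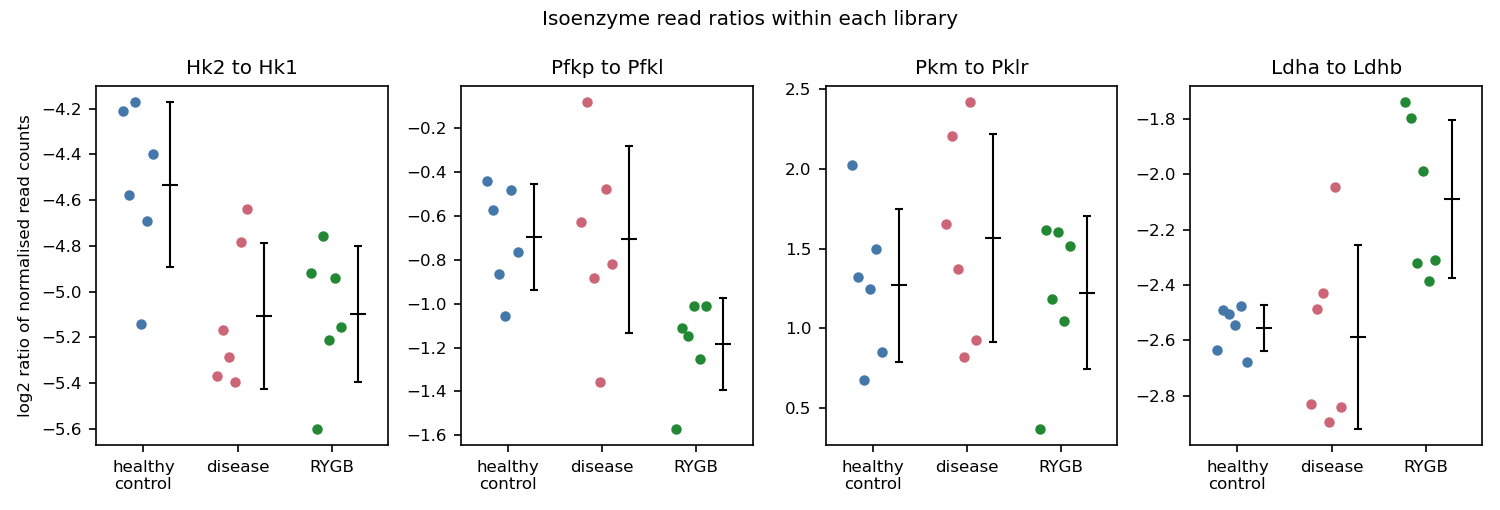
Log2 ratio of the normalised read counts of 2 isoenzyme genes within each library, by group, for hexokinase, phosphofructokinase, pyruvate kinase and lactate dehydrogenase; points are libraries and bars give the mean ± SD of 6. For Pfkp to Pfkl the RYGB mean of -1.18 is the lowest of the 3, with 1 disease and 1 healthy control library among the RYGB points, and the Ldha to Ldhb ratio of every RYGB library lies above every healthy control library.

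For hexokinase, Hk2 reads made up 2.73 to 5.22% of Hk1 and Hk2 reads in healthy control, 2.28 to 3.82% in disease and 1.99 to 3.52% in RYGB. Most fa/fa libraries lay below most healthy control libraries, and the ranges overlapped. The log2 ratio of Hk2 to Hk1 was -0.58 in disease and -0.57 in RYGB against healthy control, each with an adjusted p of 0.0519 (exact permutation test). Without healthy control replicate 4, at the lower end of its group, these were -0.70 (0.0325) and -0.69 (0.026).

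Enolase turns 2-phosphoglycerate into phosphoenolpyruvate, and Eno1 encodes its widespread alpha form. Its lowest, median and highest counts were 10930, 21380 and 25970 in healthy control, 10460, 16920 and 22900 in disease, and 9758, 16920 and 27170 in RYGB. Libraries of every group lay at both ends of this range, and the SE of its log2 fold changes, 0.25, was the widest among the 8 enzymes. The difference between RYGB and healthy control was -0.19, with a 95% confidence interval from -0.71 to 0.33. Eno1, Ldha and Pkm have near-identical processed copies in mammalian genomes, and reads that fit several places were not counted to a gene, so their levels are uncertain where that was so.

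Pyruvate kinase makes pyruvate and ATP, and Pkm encodes the form of muscle and of most growing cells, while Pklr encodes that of liver and proximal tubule. Pkm had lowest, median and highest counts of 2631, 3318 and 4309 in healthy control, 2996, 4571 and 5286 in disease, and 2916, 3723 and 4352 in RYGB. In disease 3 of 6 libraries lay above all healthy control libraries and the others lay within their range. The log2 fold change was 0.29 ± 0.16 (SE) in disease against healthy control (limma, adjusted p = 0.543) and -0.20 ± 0.16 in RYGB against disease (0.498). The log2 ratio of Pkm to Pklr differed by 0.30, -0.34 and -0.05 in the 3 comparisons, with adjusted p from 0.549 to 0.955 (exact permutation test).

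Ldha encodes the subunit of lactate dehydrogenase known for converting pyruvate to lactate, and Ldhb the subunit typical of heart and other oxidative tissue, known for the reverse. Ldha had lowest, median and highest counts of 3992, 4562 and 4786 in healthy control, 4666, 5729 and 6197 in disease, and 4929, 5691 and 6513 in RYGB. Of the disease libraries 5 of 6, and of the RYGB libraries 6 of 6, lay above every healthy control library, and the disease and RYGB ranges overlapped almost fully. The group means ± SD (n = 6) were 4463 ± 307, 5614 ± 509 and 5678 ± 510. Ldha was higher in RYGB than in healthy control by a log2 fold change of 0.35 ± 0.09 (SE), 1.27-fold, with an adjusted p of 0.0357 (limma). In disease against healthy control it was 0.33 ± 0.09 (SE), 1.26-fold, with an adjusted p of 0.0726 (limma). The latter was past the threshold without disease replicate 6, the lowest of its group (adjusted p = 0.0224), and with DESeq2 (0.0047). Between RYGB and disease the log2 difference was 0.02, with a 95% confidence interval from -0.17 to 0.20, and its sign turned when values were scaled to the total of gene reads (-0.025) or quantile normalised (-0.041). The call in RYGB against healthy control was lost without any 1 of the same 10 libraries named for Pfkl (limma adjusted p 0.0517 to 0.0964), with quantile normalisation (0.0738) and with scaling to the total of gene reads (0.0588), at log2 fold changes of 0.30 or more. Without healthy control replicate 4 it was 0.36, with an adjusted p of 0.0202.

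Ldhb had lowest, median and highest counts of 23550, 26360 and 29000 in healthy control, 23070, 33410 and 42630 in disease, and 19630, 23660 and 28710 in RYGB. In disease 5 of 6 libraries lay above every healthy control library and every RYGB library, and disease replicate 5 was the low one. The group means ± SD (n = 6) were 26240 ± 1920, 34270 ± 6960 and 24320 ± 3680, so the spread was widest in disease. The log2 fold change was 0.36 ± 0.14 (SE) in disease against healthy control (limma, adjusted p = 0.32) and -0.48 ± 0.14 in RYGB against disease (0.0658), and neither was called. The latter was past the threshold without disease replicate 5 (-0.59, adjusted p = 0.0132), with values scaled to the total of gene reads (0.0114), with quantile normalisation (0.00316) and with DESeq2 (0.00819). In RYGB against healthy control it was -0.12, with a 95% confidence interval from -0.42 to 0.18.

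Ldha reads made up 13.5 to 15.2% of Ldha and Ldhb reads together in healthy control, 11.9 to 19.5% in disease and 16.1 to 23% in RYGB, with medians of 14.8, 13.7 and 18.5%. Every RYGB library had a higher share than every healthy control library, and the disease libraries were spread around the healthy control libraries. The log2 ratio of Ldha to Ldhb was higher in RYGB than in healthy control by 0.47, at means of -2.09 ± 0.28 and -2.55 ± 0.08 (SD, n = 6 each; exact permutation test, two-sided, p = 0.00216, the smallest that 6 against 6 allows, adjusted p = 0.026). In RYGB against disease the difference was 0.50 (exact permutation test, adjusted p = 0.0571), and in disease against healthy control -0.03 (0.955). Leaving out healthy control replicate 1, 2, 3, 5 or 6 took the first of these to an adjusted p of 0.0519 (exact permutation test). The difference then lay between 0.44 and 0.48, and every RYGB library still lay above every remaining healthy control library. Fewer libraries allow fewer splits, so this change in adjusted p alone does not show a weaker difference.

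The promoter windows of the lactate dehydrogenase genes are printed to set the isoenzyme that was higher in RYGB than in healthy control beside the one that was not. The Ldha window, GRCr8 chr1:106507842-106508141, plus strand, holds ACGTG 3 times and GCGTG 3 times on both strands, the most of any window of the 8 enzymes. Its 1 CACGTG reads the same on both strands and accounts for 2 of the 3 ACGTG matches. The Ldhb window, GRCr8 chr4:177177359-177177658, minus strand, holds GCGTG 1 time and neither of the others. A match is a description of letters, and no binding was measured:
Ldha: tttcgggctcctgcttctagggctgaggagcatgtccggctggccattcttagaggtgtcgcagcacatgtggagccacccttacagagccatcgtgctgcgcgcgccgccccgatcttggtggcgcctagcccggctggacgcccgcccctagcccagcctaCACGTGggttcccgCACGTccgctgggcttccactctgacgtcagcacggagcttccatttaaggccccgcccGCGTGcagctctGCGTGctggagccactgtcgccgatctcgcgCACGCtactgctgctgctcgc
Ldhb: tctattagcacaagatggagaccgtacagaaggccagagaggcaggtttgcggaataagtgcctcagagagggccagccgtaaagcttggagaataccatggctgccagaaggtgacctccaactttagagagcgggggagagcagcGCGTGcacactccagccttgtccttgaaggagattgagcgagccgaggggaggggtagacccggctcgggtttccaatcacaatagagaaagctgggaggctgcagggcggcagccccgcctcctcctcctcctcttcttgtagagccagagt

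The summed levels of markers of some cell types also differed between groups, some in the order of an enzyme and some not. All 9 macrophage markers had a row and none was at 0 in a group. Their summed level was 5193 to 7167 normalised reads in healthy control, 8319 to 10520 in disease and 7382 to 9760 in RYGB. The sums of both fa/fa groups thus lay above healthy control, as 11 of 12 fa/fa libraries did for Ldha. The single markers were divided in RYGB against healthy control, where 4 of 9 had a positive log2 fold change and the median was -0.0996. In disease against healthy control 7 of 9 were positive, with a median of 0.315. Of the 9, 1 was called higher and 1 lower in RYGB against healthy control, and 2 were called higher in disease against healthy control. Of all genes, 4.44% and 1.61% were called in these comparisons. For the 10 markers of injured proximal tubule the summed level was 13340 to 21690 in healthy control, 26520 to 52240 in disease and 17970 to 20180 in RYGB, which was highest in disease as was Ldhb, and none was at 0. Of the 9 tested, 5 were called higher in disease against healthy control and 4 lower in RYGB against disease. Of all genes, 1.61% and 3.95% were called there. In RYGB against healthy control 1 of the 9 was called, higher. Markers of proliferating cells summed to 161.9 to 456.8 in healthy control, 326.3 to 543.1 in disease and 124.6 to 198.9 in RYGB, with 5 of 6 called lower in RYGB against each other group. Of all 13988 genes tested, 294 were called lower in RYGB against disease and 277 in RYGB against healthy control. Summed levels of 5 thick ascending limb markers were 83790 to 113300 in healthy control and 30770 to 95120 in disease. In RYGB their sum was 58090 to 142500. Of these 5, 2 were called lower in disease against healthy control and 3 higher in RYGB against disease. Of 15 proximal tubule markers, 3 were called lower in disease against healthy control. In RYGB 2 were called higher against disease and 1 lower against healthy control. The part of these cells in the enzyme results was not tested. In bulk tissue, fewer cells of a type and less RNA per cell cannot be told apart.

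Within groups, some of the enzymes followed the summed level of the 15 proximal tubule markers, which was 241500 to 440800 in healthy control, 173600 to 355900 in disease and 305800 to 441100 in RYGB. After subtraction of the group means, over 18 libraries, Pkm had r = -0.706 and rho = -0.769 with that sum (permutation tests within groups, p = 0.00601 and 0.00181, adjusted p = 0.0515 and 0.029 over 32 relations). Hk1 had r = -0.643 and rho = -0.686 (permutation, adjusted p = 0.0515 and 0.0352), and Eno1 had r = 0.627 and rho = 0.756 (permutation, adjusted p = 0.0515 and 0.0246). Libraries with more proximal tubule transcript thus had fewer Pkm and Hk1 reads and more Eno1 reads. Pfkp had r = -0.685 and rho = -0.604 (permutation, adjusted p = 0.0515 and 0.109). Of 32 relations of the 8 enzymes with this sum, with depth and with 2 read shares, 3 passed by rho and 0 by r. Without disease replicates 4 and 2, the libraries farthest from the median, r was -0.617 for Pkm, -0.534 for Hk1, -0.47 for Pfkp and 0.663 for Eno1. For Ldha and Pfkl, r was 0.401 and 0.322 (permutation, p = 0.133 and 0.23). With depth, as log2 reads in genes, r was -0.597 for Hk1 and -0.496 for Pkm (permutation, adjusted p = 0.0855 and 0.178). It was -0.453 for Pfkp and 0.554 for Eno1 (permutation, adjusted p = 0.253 and 0.108). These have the same signs as with the marker sum, and the cause of any of these relations was not tested.

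**Figure D4:**
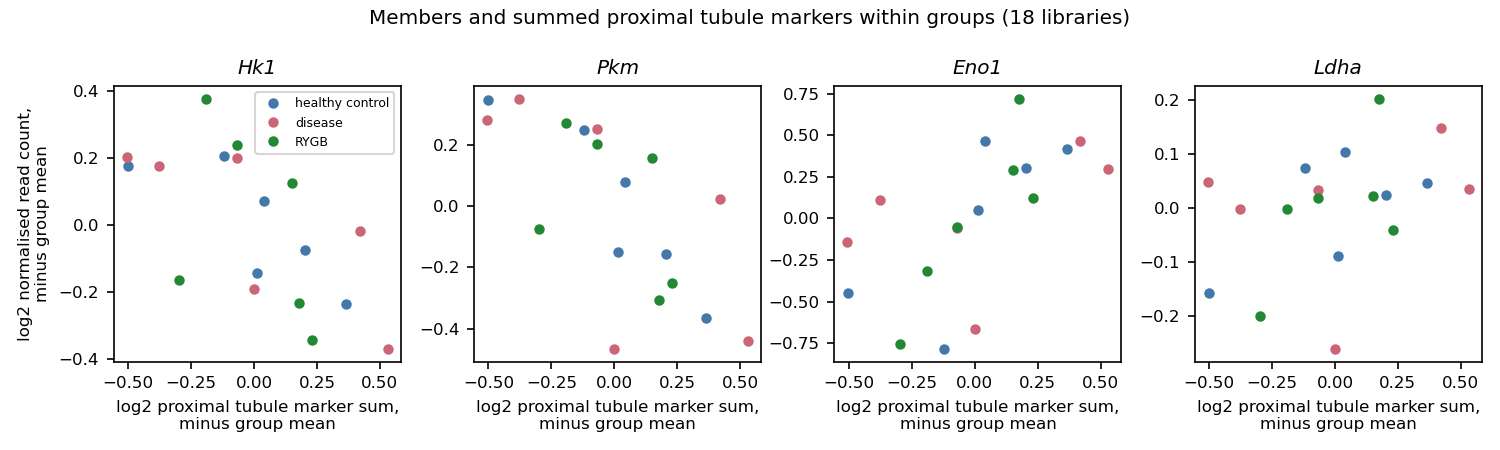
Log2 normalised read count of Hk1, Pkm, Eno1 and Ldha against the log2 summed level of 15 proximal tubule markers, both minus the mean of the library's group, in 18 libraries; points are coloured by group. Hk1 (r = -0.643) and Pkm (r = -0.706) fall and Eno1 (r = 0.627) rises along the axis.

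The other genes of glycolysis and its branches give the setting. Of 18 further glycolytic genes listed, 13 had a row and 11 were tested. In disease against healthy control 0 of 11 were called by limma, 2 were higher at an unadjusted p below 0.05, beside 5.19% of all genes, and edgeR called 0 and DESeq2 1, Pgam2. In RYGB against disease 1 was called higher and 1 lower, and in RYGB against healthy control 1 was called higher, where 3.95% and 4.44% of all genes were called. DESeq2 called 1 more in RYGB against healthy control, Eno3, higher (limma log2 fold change 0.57, adjusted p = 0.0712). Hk3, a low-abundance hexokinase known from white blood cells, had lowest, median and highest counts of 17.17, 32.6 and 38.97 in healthy control, 28.75, 35.44 and 49.83 in disease and 43.42, 91.51 and 174.1 in RYGB. All RYGB libraries lay above all healthy control libraries, and 5 of 6 above all disease libraries. Hk3 was higher in RYGB than in healthy control by a log2 fold change of 1.57 ± 0.27 (SE; limma, adjusted p = 0.00327) and than in disease by 1.30 ± 0.27 (0.0118). Leaving out any 1 library kept both calls. The macrophage marker sums overlapped between RYGB and disease, with 3 of 9 markers positive in log2 fold change, 0 called higher and 2 lower. The summed level of 10 lymphocyte markers was lower in RYGB (448.8 to 530.6) than in disease (583.9 to 822.1). Of the 7 lymphocyte markers tested 3 were positive, with 1 called higher and 1 lower. Of all genes, 3.95% were called there. None of either list was at 0, and their part in the Hk3 difference was not tested. Pgam2, the muscle form of phosphoglycerate mutase, which moves the phosphate ahead of the enolase step, had lowest, median and highest counts of 86.88, 112.1 and 184.9 in healthy control, 130.7, 238.6 and 311.4 in disease and 66.14, 90.41 and 201.2 in RYGB. It stood highest in disease, where 5 of 6 libraries lay above all healthy control libraries, and fell in RYGB against disease by 1.20 ± 0.25 (SE) on the log2 scale (limma, adjusted p = 0.0118), a call kept without any 1 library. The 5 markers of skeletal muscle summed to 32.78 to 80.95 reads in healthy control, 24.67 to 57.3 in disease and 24.04 to 35.93 in RYGB. Only 2 of these 5 passed the filter on low values, and their part in the Pgam2 difference was not tested.

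**Figure D5:**
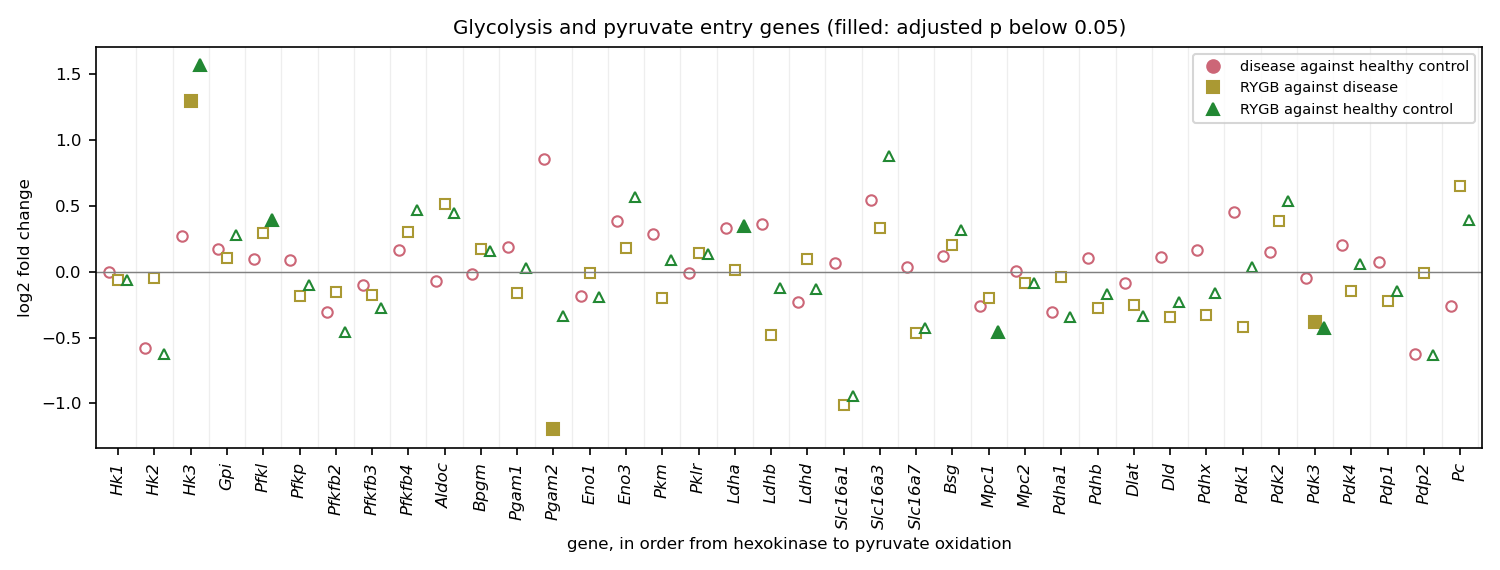
Log2 fold change of glycolytic genes, their regulators, lactate transporters and genes of pyruvate entry into mitochondria, in pathway order, in 3 comparisons of 6 libraries against 6; filled symbols mark a limma adjusted p below 0.05. Most symbols are open, and the filled ones are Hk3, Pgam2, Pdk3, Mpc1, Pfkl and Ldha.

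Downstream, 15 genes of pyruvate entry into mitochondria were tested. In disease against healthy control 0 were called by limma, edgeR or DESeq2. At an unadjusted p below 0.05 in limma, 1 was higher and 2 lower, beside 5.19% and 5.89% of all genes. In RYGB 1 was called lower against disease and 2 lower against healthy control, where 3.95% and 4.44% of all genes were called. At an unadjusted p below 0.05, 1 was higher and 4 lower in RYGB against disease, beside 11.2% and 9.54%. In RYGB against healthy control 1 was higher and 5 lower, beside 14.4% and 11.8%. DESeq2 called 1 more in each of these, Pc, higher in RYGB than in disease, and Pdha1, lower in RYGB than in healthy control. Pdk3, a kinase that switches off pyruvate dehydrogenase, had lowest, median and highest counts of 583.8, 844.8 and 898.5 in healthy control, 684.5, 778.8 and 864.5 in disease and 552.3, 586.1 and 649.8 in RYGB. Every RYGB library lay below every disease library, and below 5 of the 6 healthy control libraries, the exception being replicate 4. Pdk3 fell by 0.38 ± 0.10 (SE) on the log2 scale in RYGB against disease (limma, adjusted p = 0.0407) and by 0.43 ± 0.10 in RYGB against healthy control (0.0245). Mpc1, a subunit of the mitochondrial pyruvate carrier, had lowest, median and highest counts of 8662, 13390 and 14280 in healthy control, 8368, 10870 and 12270 in disease and 8453, 9214 and 9618 in RYGB. It fell by 0.45 ± 0.13 (SE) in RYGB against healthy control (limma, adjusted p = 0.0445), and healthy control replicate 4 was again the low library of its group. Without that replicate the values were -0.52 for Pdk3 (limma, adjusted p = 0.000747) and -0.56 for Mpc1 (0.00292) in RYGB against healthy control. The Pdk3 call in RYGB against disease was lost without any 1 of healthy control replicates 2 and 6, disease replicates 1, 2, 4 and 6 and all 6 RYGB replicates (limma adjusted p 0.0507 to 0.102), and that against healthy control without healthy control replicates 1, 3, 5 or 6 or RYGB replicates 1 or 6 (0.0575 to 0.0677). The Mpc1 call was lost without healthy control replicates 1, 2, 3, 5 or 6, disease replicate 2 or RYGB replicates 1, 2, 4, 5 or 6 (0.0505 to 0.112), and with no filter on low values (0.0584).

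Among 5 genes of gluconeogenesis, the reverse route, Pck1 was called in RYGB against healthy control, where 4.44% of all genes were. No other gene of the list was called by limma in any comparison. DESeq2 also called Fbp2, higher in disease than in either other group. Pck1, whose enzyme makes phosphoenolpyruvate from oxaloacetate, had lowest, median and highest counts of 67220, 96690 and 298100 in healthy control, 77870, 209300 and 311200 in disease and 184800, 302600 and 468100 in RYGB. Healthy control replicate 4 held the 298100, and the other 5 libraries of its group lay below every RYGB library. The log2 fold change was 1.35 ± 0.37 (SE; limma, adjusted p = 0.0428), and 1.63 without that replicate (0.00511). It was lost without healthy control replicates 1, 2, 3, 5 or 6 or RYGB replicates 1, 4, 5 or 6 (limma adjusted p 0.0697 to 0.12), and with no filter on low values (0.0624). Of 8 glycogen genes tested, 1 was called, in RYGB against disease, where 3.95% of all genes were. Pygm, the muscle form of glycogen phosphorylase, fell there by 0.77 ± 0.20 (SE; limma, adjusted p = 0.0343). This call was lost on leaving out any 1 of 5 libraries, disease replicates 1 and 2 and RYGB replicates 1, 2 and 5 (limma adjusted p 0.0629 to 0.0911). DESeq2 called Gyg1 as well, lower in RYGB than in disease.

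Of 15 hypoxia-inducible genes tested, 1 was called in RYGB against disease, where 3.95% of all genes were. In the other comparisons limma, edgeR and DESeq2 called 0. At an unadjusted p below 0.05 in limma there were 0 in disease against healthy control, beside 5.19% of all genes higher and 5.89% lower. In RYGB against healthy control 1 was higher and 0 lower, beside 14.4% and 11.8%. In RYGB against disease 2 were higher and 1 lower, beside 11.2% and 9.54%. The called gene was Slc2a1, the basal glucose transporter GLUT1, with lowest, median and highest counts of 783, 926.3 and 1030 in healthy control, 429.4, 705.2 and 1150 in disease and 884.2, 1093 and 1617 in RYGB. It was higher in RYGB than in disease by a log2 fold change of 0.69 ± 0.19 (SE; limma, adjusted p = 0.0424), with 3 of 6 RYGB libraries above all disease libraries. It was lost without any 1 of healthy control replicates 2, 3, 5 and 6, disease replicates 1, 2, 4 and 6 and RYGB replicates 1, 2, 4 and 6 (limma adjusted p 0.052 to 0.103), and under quantile normalisation (0.0575), scaling to the total of gene reads (0.106) or a fit of only the compared groups (0.094).

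No gene of 4 lists was called by limma in any comparison: 3 regulators of fructose 2,6-bisphosphate, 6 lactate and pyruvate transport genes, 6 genes of the pentose phosphate pathway and 4 carbohydrate response genes. Between 0 and 3 genes of a list reached an unadjusted p below 0.05 in a comparison. Of all genes, 5.19% were higher and 5.89% lower at this level in disease against healthy control. The shares were 11.2% and 9.54% in RYGB against disease, and 14.4% and 11.8% in RYGB against healthy control. edgeR called Slc16a3 in RYGB against healthy control and H6pd in RYGB against disease, both higher, and DESeq2 called these and 2 more, Rpe lower in RYGB against disease and Pgls higher in RYGB against healthy control, names that were chosen after their values were seen. The most abundant genes of these lists had log2 fold changes in RYGB against healthy control of -0.46 for Pfkfb2 and -0.27 for Pfkfb3, both enzymes that set the level of the activator of phosphofructokinase (limma, adjusted p = 0.185 and 0.455). They were 0.32 for Bsg, the chaperone of lactate transporters, and -0.16 for Slc5a12, a sodium-coupled lactate transporter (0.208 and 0.817). For the pentose phosphate enzymes Tkt and Taldo1 they were 0.21 and 0.19 (0.384 and 0.309), and for Txnip, a glucose-induced gene, and Khk, which phosphorylates fructose, 0.28 and 0.30 (0.446 and 0.248).

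The similarity of the enzymes' patterns was measured as the mean absolute difference of standardised log2 values over the 18 libraries, where 0 means identical patterns. Among rows with a gene symbol, the nearest to Ldha outside the set were Rasa4 (0.381), Rogdi (0.388) and Bmp1 (0.39), beside a median of 1.14 over all genes, and 1 row named only by an identifier or locus was nearer still. For Pfkl they were Rpl14 (0.289), Dazap1 (0.294) and Rpl6 (0.301), and for Hk2 they were Neto2 (0.39), Mcf2 (0.408) and Pcdh7 (0.426). Within the set, Hk1 and Pfkp were the closest pair at 0.38, each ranking 2 among all genes for the other, and Pkm followed Pfkp at 0.465. Ldha and Pfkl, the pair called in RYGB against healthy control, were 0.667 apart, at rank 925 and 838 of all genes.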

How the data were processed

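RNA-seq of rat kidney cortex was analysed in 18 libraries of 3 groups of 6, grouped by their titles and strain labels. Each deposited value is a signal: the authors divided the reads of a gene by the library's size factor (0.401 to 2.02). The submitters' processing notes name HTSeq 0.6.1p1, DESeq2, MultiQC 0.9 and FastQC 0.11.2, and Rnor 5.0 as the build. For the DESeq2 version, the aligner and the annotation, the notes say nothing: not given in the sources used here. Per the labels' protocols, a stranded kit for polyadenylated RNA was used. Of 18423 rows, 3 name no gene and were left out: reads outside genes (27.62 to 43.17%), multiply aligned reads (13.46 to 18.13%) and ambiguous reads (0.0695 to 0.114%). Whole reads were recovered, since at least 99.9946% of a library's values were whole multiples of its step within 0.01 reads. Libraries of a group all differed by more than sampling noise (chi-square over degrees of freedom at least 21.4).

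Genes with a value of 10 or more in 6 or more libraries were tested with limma 3.58.1 under R 4.3.3, on log2(value + 1) with its trend option. All 18 libraries entered a single fit of the 3 group means (15 residual degrees of freedom), which gave 3 comparisons, two-sided and adjusted by Benjamini-Hochberg over 13988 genes. Isoenzyme ratios were tested by exact permutation of the libraries and adjusted over 12 tests. Alternatives were edgeR 4.0.16 and DESeq2 1.42.0 on the recovered reads, which called 224, 629 and 846 genes and 410, 1098 and 1602 genes in the 3 comparisons, other pseudocounts, filters and scalings, fits of the compared groups alone, a replicate block and each library left out. The block within compared groups, the alternatives for pathway genes and the relations to library properties (100000 permutations) were added after seeing the data. The limma step was tested on simulated data. Same-numbered libraries of disease and healthy control had r from 0.131 to 0.325 over genes. For 3 of the 6 disease libraries the same-numbered control library had the highest r. The labels name no pairing, and these values do not settle whether the numbers pair libraries, so the main fit used none. The replicate block in disease against healthy control changed no call among the 8 enzymes.

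The enzymes and the gene lists were chosen with earlier results of these data known. All members with a row were named. From each pathway list up to 3 called genes per comparison were named, or the 2 most abundant where none was called. For the 3 members with the lowest adjusted p, the 3 nearest genes by pattern were named, leaving out rows with only an identifier or locus name. Promoters and gene names came from RefSeq (GRCr8), and no coordinates of Rnor 5.0 were used.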

Additional observations from a re-analysis of the deposited data

Results flagged for a closer look

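Of 36 sets of 6 libraries examined (8 enzymes and 4 ratios in 3 groups), 1 held a library far from the others: Pfkl in healthy control, where replicate 4 had 2397 normalised reads and the next highest library 1804. The gap was 0.671 of the group's range. Chance alone marks about 1 in 20 such sets.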

How the results depend on the processing

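Each enzyme was recomputed under 29 alternatives. Of the 8 enzymes, 1 was called in disease against healthy control with quantile normalisation (Ldhb) and with DESeq2 (Ldha), and 1, Ldhb, in RYGB against disease with quantile normalisation, scaling to the total of gene reads and DESeq2. In RYGB against healthy control 1 was called after scaling to the total of gene reads (Pfkl). Leaving out 1 library gave 0 to 1, 0 to 1 and 0 to 3 enzymes called in the 3 comparisons. Over all genes, calls in disease against healthy control were 143 with a minimum of 50, 410 with DESeq2 and 124 to 310 without 1 library. In RYGB against disease they were 1098 with DESeq2 and 259 to 817 without 1 library, and in RYGB against healthy control 1442 with only the compared groups, 1602 with DESeq2 and 203 to 1501 without 1 library. Scaling to the total of gene reads moved the calls in RYGB against disease from 258 higher of 552 (46.7%) to 195 of 545 (35.8%). With a replicate block, 1 enzyme was called in RYGB against healthy control (Pfkl; Ldha had 0.0709 in limma), and 0 with the block within the compared groups, which gave 136 calls over all genes in RYGB against disease. Blocked sign permutation took the Ldha to Ldhb and Pfkp to Pfkl ratios in RYGB against healthy control to adjusted p of 0.125 and 0.188, but with a smallest sign p of 0.03125 over 12 tests this design could hardly reach the threshold, so it says nothing about their stability. There the same-numbered libraries had r from -0.31 to 0.0141, and in RYGB against disease from -0.557 to 0.309. These values do not settle whether the numbers pair libraries. Among the other named genes, the block over all libraries or within the compared groups ended the calls of Pdk3 (limma adjusted p 0.0874 and 0.223 against disease, 0.053 and 0.072 against healthy control), Mpc1 (0.0769 and 0.058), Pygm (0.0517 and 0.143) and Slc2a1 (0.0523 and 0.2), and within the compared groups those of Pck1 (0.0624) and of Hk3 against disease (0.0769). Quantile normalisation left 2 enzymes called in RYGB against healthy control, with Hk2 in and Ldha out. Signs of differences near 0 turned: Hk1 in disease against healthy control with edgeR (-0.00047), Ldha in RYGB against disease with quantile normalisation (-0.041) and scaling to total reads (-0.025), and Eno1 there with edgeR (0.036) and DESeq2 (0.024). Without 1 library, ranges that crossed 0 were, in disease against healthy control, -0.046 to 0.075 for Hk1, -0.14 to 0.12 for Pfkp to Pfkl and -0.14 to 0.029 for Ldha to Ldhb. In RYGB against disease they were -0.14 to 0.0070 for Hk1, -0.18 to 0.049 for Hk2, -0.15 to 0.14 for Eno1, -0.035 to 0.057 for Ldha and -0.057 to 0.11 for Hk2 to Hk1. In RYGB against healthy control they were -0.14 to 0.0079 for Hk1, -0.17 to 0.12 for Pkm to Pklr and -0.32 to 0.12 for Slc5a12. The cause was not tested. Hk3 gave no value with a minimum of 50. Hk2 rests on 30 to 213 reads per library.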
